A study of Drosophila melanogaster with 36 samples.

Results

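The gene sad encodes a mitochondrial cytochrome P450 enzyme (Cyp315a1) that carries out one of the last hydroxylation steps on the way to ecdysone, the moulting hormone of insects. It is the probe set with the platform gene symbol sad, and it was chosen by its levels on these arrays, a large rise in Control and lower levels in the other lines. It is 1 of the 11981 genes represented by a probe set of a single symbol, and it has 1 probe set on the array. Because its pattern chose it, every level and difference of sad below is a description and carries no test.

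Heads of adult Drosophila melanogaster were measured on 36 one-colour Affymetrix arrays, in 12 groups of 3 replicates. Each sample was RNA from 20 pooled heads. All flies developed at 18 °C and were collected within 48 hours of eclosion. They were frozen at once (day 0) or after 2 or 14 days at 29 °C. A comparison with day 0 thus joins adult age and the move from 18 °C to 29 °C, which cannot be told apart. Control flies carried GMR-Gal4, a driver active mainly in the eye, and Gal80, a repressor of Gal4 that is often used in a heat-sensitive form, although the labels do not name the form. Atro flies expressed a wild-type transgene of Atrophin, the transcriptional corepressor encoded by Gug. The A66QC and A75QN flies expressed a polyglutamine (polyQ) form of it. The labels of the transgenic lines do not list their driver, and a difference from Control sets flies with a transgene against flies with none. The labels do not give the sex of the flies, nor whether the replicates of a group were separate cultures. The spread behind each p-value may therefore be technical. In bulk heads, fewer cells that express a gene and less RNA per cell cannot be told apart.

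Ecdysteroids are made from dietary sterols by a chain of enzymes, most of them the Halloween genes. The dehydrogenase Nvd starts the chain, Sro and the P450 enzymes Spo and Spok act in the steps after it, and the P450 enzymes Phm, Dib and Sad finish ecdysone. Shd then turns ecdysone into its active form, which binds the receptor pair EcR and Usp. In larvae the chain runs in the ring gland, an endocrine gland, and in adults ecdysteroids are best known from the ovary. Sad, Dib and Shd sit in mitochondria and take their electrons from ferredoxin.

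The values are the deposited log2 signals, so a difference of 1 is a doubling of signal. Array medians lay between 6.34 and 6.40, and replicates correlated across probe sets with r of 0.9952 to 0.9985. No detection call was used here, and a level under 6.40 is called near background, a limit chosen with the data known. That limit is the highest array median, so a large part of all probe sets lies under it on any array. The share of all probe sets under it in all 12 groups was not computed. Counts of genes near background are therefore descriptions. The SD over probe sets of 6 arrays lay at least 5% off the median of their group. These were Control day 0 replicate 1, Control day 2 replicate 2, Control day 14 replicate 2, Atro day 2 replicate 2, A66QC day 0 replicate 2 and A66QC day 2 replicate 3. The 5 measured photoreceptor genes had group means of 10.9 to 12.6, while the 14 measured testis genes stayed between 5.39 and 6.39 on every array. The group means of Gug lay between 8.67 and 9.09, and no line was called above Control for it.

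Newly eclosed flies of every genotype had sad near background. In Control at day 0 the 3 arrays read 6.30, 6.21 and 6.16. The Atro arrays read 6.34, 6.41 and 6.23. The polyQ lines read 6.39, 6.38 and 6.36 in A66QC, and 6.38, 6.34 and 6.27 in A75QN. These 12 values overlap the upper end of the testis genes, and 11 of them lie under the highest array median. The mean level of each group corresponded to a percentile between 45.6 and 50.1 among all probe sets of its arrays. A66QC was the one line whose arrays all lay above those of Control, by 0.15 (SE 0.071), while Atro and A75QN overlapped Control. A difference between levels this close to background is uncertain in size.

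After 2 days at 29 °C the Control heads had gained a strong sad signal. Their arrays read 9.84, 9.53 and 9.89, a group mean of 9.75 ± 0.19 (SD, n = 3). The rise over day 0 was 3.53 (SE 0.071), or 11.5-fold, which ranked 3 from the top among 18769 probe sets. In percentiles the group went from 45.6 to 92.8. The true fold may be larger, since the starting level was near background.

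The 3 transgenic lines rose as well, but far less. At day 2 the Atro arrays read 7.56, 7.44 and 7.41. A66QC read 7.51, 7.65 and 7.68. A75QN read 7.51, 7.45 and 7.69. In each line all day 2 arrays lay above all day 0 arrays, and all lay below all Control arrays of day 2. The rise was 1.15 in Atro, 1.24 in A66QC and 1.22 in A75QN (SE 0.071 each), between 2.21-fold and 2.35-fold, and it ranked between 20 and 33 from the top among the probe sets of its comparison. Set against the rise of Control, these rises differed by -2.38, -2.29 and -2.31 (SE 0.10 each). The arrays of the 3 lines overlapped one another at day 2, for the wild-type as for the polyQ transgenes. The signal of the lines was 20.6% (Atro), 22.7% (A66QC) and 21.8% (A75QN) of that of Control on the linear scale.

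**Figure D1:**
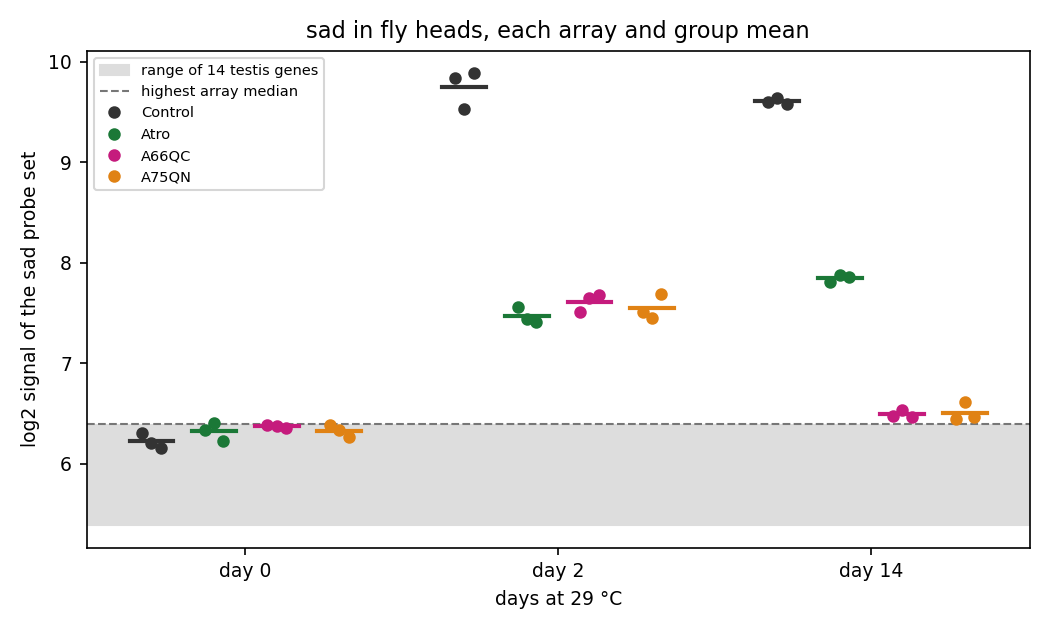
Level of sad in heads on each array (points, log2 signal) and the group mean (bars) for Control, Atro, A66QC and A75QN at days 0, 2 and 14. The dashed line is the highest array median, 6.40, and the grey band spans the 14 testis genes on all arrays, 5.39 to 6.39. All groups start at the band, Control stays above 9.5 from day 2, and both polyQ lines return to between 6.44 and 6.62 at day 14.

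By day 14 the wild-type line and the polyQ lines had parted. Control stayed high, with arrays at 9.60, 9.64 and 9.58. Atro read 7.81, 7.88 and 7.86, all above its own day 2 arrays. A66QC fell to 6.48, 6.53 and 6.47, and A75QN to 6.44, 6.62 and 6.46. Control at day 14 overlapped Control at day 2, with a difference of -0.15 (SE 0.071). That small difference was -0.26 without Control day 2 replicate 2, the lowest array of its group, and -0.079 without replicate 3. Atro gained 0.38 (SE 0.071), or 1.30-fold, between the same days. A66QC fell by 1.12 and A75QN by 1.04 (SE 0.071 each), to 46.1% and 48.5% of their day 2 signal.

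At day 14 the polyQ lines were back near their own starting level. The difference of day 14 from day 0 was 0.12 in A66QC and 0.18 in A75QN, against 1.52 in Atro and 3.38 in Control. In linear terms these were 1.08-fold, 1.13-fold, 2.88-fold and 10.4-fold. Every polyQ array of day 14 nevertheless lay above every day 0 array of any genotype, the highest of which was 6.41. Against Control at day 14, Atro differed by -1.76, A66QC by -3.11 and A75QN by -3.10 (SE 0.071 each). This left 29.6%, 11.6% and 11.7% of the Control signal. Against Atro at day 14, A66QC differed by -1.36 and A75QN by -1.34, or 39.1% and 39.5% of its signal, with no overlap of arrays.

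In descending order of group means, Control at day 2 (9.75) and Control at day 14 (9.61) came first and overlapped. Atro at day 14 followed at 7.85 ± 0.035 (SD, n = 3), with all arrays above those of the next 3 groups. Those were A66QC at 7.61, A75QN at 7.55 and Atro at 7.47, all at day 2 and overlapping. Next came A75QN at 6.51 and A66QC at 6.49 at day 14, which overlapped. The 4 groups of day 0 came last, from 6.38 in A66QC to 6.22 in Control. Pooled over the 12 groups, the SD between replicates was 0.09, and the group means spanned 3.53. Of the other probe sets, 35 had a wider span. The arrays of the polyQ lines overlapped each other on every day. A66QC minus A75QN was 0.045 for newly eclosed flies, 0.06 after 2 days and -0.014 after 14 days (SE 0.071 each). With 1 array left out these ranged from 0.016 (without A75QN replicate 3) to 0.071 (A75QN replicate 1), from 0.01 (A75QN replicate 2) to 0.132 (A75QN replicate 3), and from -0.046 (A75QN replicate 1) to 0.04 (A75QN replicate 2).

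**Figure D2:**
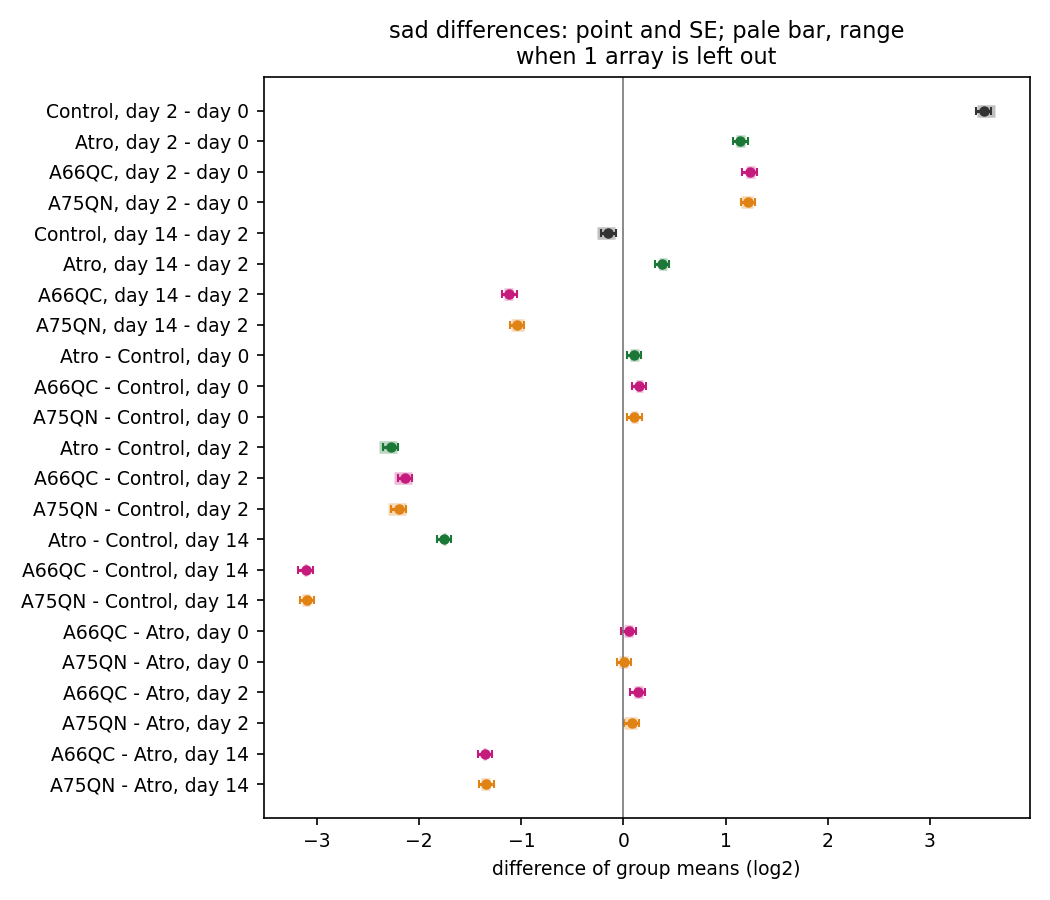
Differences of group means of sad (log2, horizontal axis) for each comparison between days or genotypes (vertical axis), with the SE of the model (error bars) and the range of values when 1 array is left out (pale bars). The differences of the lines from Control lie near 0 at day 0, between -2.28 and -2.14 at day 2, and at -1.76 (Atro), -3.11 (A66QC) and -3.10 (A75QN) at day 14.

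Some technical measures and markers moved between the same groups. The difference between the probe sets for the 3′ and 5′ ends of GAPDH, a measure of RNA integrity, averaged 1.90 to 2.03 over the groups of day 0, 2.28 to 2.54 at day 2 and 2.31 to 2.66 at day 14. At day 2 it was 2.41 in Control, between the 2.28 of A75QN and the 2.54 of A66QC. The 24 poly-A spike-in probe sets averaged 13.2 and 13.3 in A75QN at days 2 and 14 and between 10.36 and 10.65 in every other group. The summed level of the 5 muscle genes was 13.3 in Control at day 0 and 12.0 at day 2, and 12.4 to 12.6 in the lines at day 2. At day 14 the summed level of the 4 glia genes averaged 12.84 in Control, 12.65 in Atro, 12.45 in A75QN and 12.34 in A66QC, and the arrays of the polyQ lines lay below those of Control and Atro without overlap. The summed level of the 6 neuron genes averaged 11.23, 11.01, 11.01 and 10.75 in the same order, and A75QN overlapped Atro. At day 0 the neuron sum averaged 11.43, 11.35, 11.24 and 11.03 in that order. The A66QC arrays thus lay below those of every other genotype already at day 0. The parts of RNA integrity, spike-in signal, muscle, glia and neurons in the sad differences were not tested. Without the 6 arrays of outlying spread the rise of Control was 3.68.

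Most genes on the marker lists for ring gland, ovary and testis were near background, as a large part of all probe sets is by that limit. Of the 6 measured ring gland genes, 5 were near background in all 12 groups, and the summed level of the list lay between 8.75 and 8.83 over the group means. Of these 6 genes 3, phm, dib and spok, are also on the list of synthesis enzymes. Of the 16 ovary and follicle cell genes, 12 were near background in all groups. The summed ovary level averaged 10.05, 10.08 and 10.14 in Control at days 0, 2 and 14, and its mean lay within that range in all groups. The Control mean of day 14 rests on replicate 3, which read 10.28 where replicates 1 and 2 read 10.07. All 14 testis genes were near background, with sums of 9.60 to 9.72. These genes also served above as a gauge of background, so their low level is no separate result.

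Most other enzymes of the chain stayed near background, under a limit that also takes in a large part of all probe sets. Of the 9 measured, 7, namely nvd, spo, spok, sro, phm (listed as phtm), dib and shd, had all 12 group means under the highest array median. The means of dib, the mitochondrial P450 that acts just before sad, ranged from 5.96 to 6.09. Those of phm ranged from 6.02 to 6.22, and those of shd, which acts just after sad, from 6.22 to 6.38. Of these 7 genes spo alone was called between day 0 and day 2 in Control, at 0.19 (SE 0.057, adjusted p = 0.0133 in the limma fit over all probe sets), with no array above 5.95. In that comparison 22.2% of all probe sets were called. The spo call was lost in 4 of 12 alternatives, 2 of which left out Control day 0 replicate 2 or Control day 2 replicate 2. None of the 7 was called in any line against Control at day 2, where the unadjusted p was under 0.05 for 3 of them in A66QC and for none in Atro or A75QN. The shares of all probe sets called at day 2 were 3.63% (Atro), 3.44% (A66QC) and 4.68% (A75QN). At day 14 nvd (0.21, adjusted p = 0.00813) and spok (0.20, adjusted p = 0.0237) were called higher in A75QN than in Control and sro (0.14, adjusted p = 0.0377) in A66QC, all near background, where 15.6% (A75QN) and 17.9% (A66QC) of all probe sets were called. These calls were lost in 2, 6 and 8 of 12 alternatives. Leaving out Control day 14 replicate 2 ended all of them. The spok call also ended without A75QN replicate 2 or 3, and the sro call without Control replicate 3 or A66QC replicate 2 or 3.

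**Figure D3:**
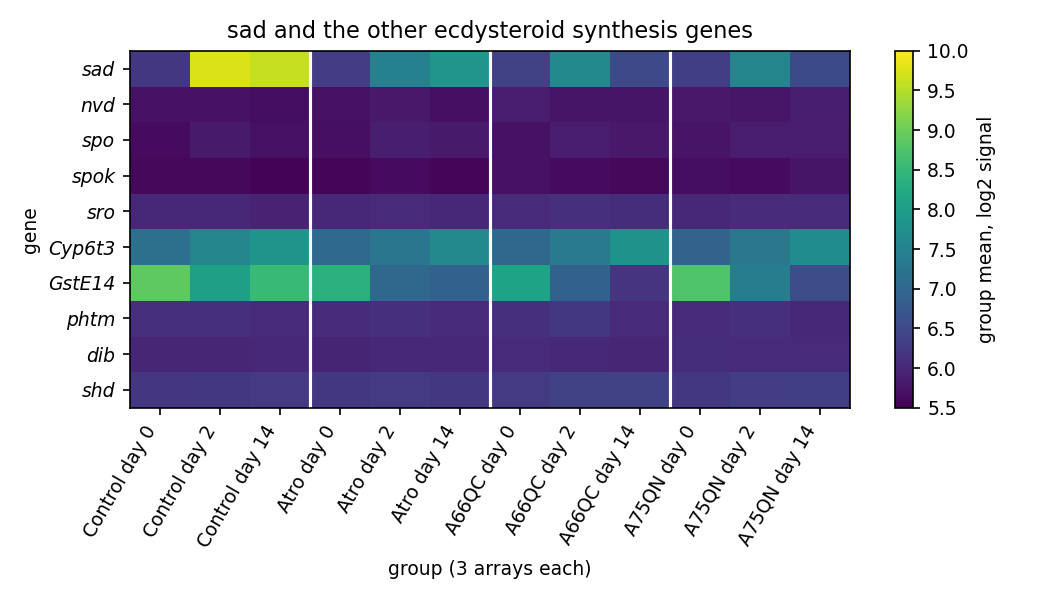
Group means (colour, log2 signal) of sad and the 9 other ecdysteroid synthesis genes (rows) in the 12 groups of 3 arrays (columns). Of the rows, sad, Cyp6t3 and GstE14 leave the dark end of the scale, while the means of dib stay between 5.96 and 6.09 throughout.

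Besides sad, Cyp6t3 was above background in all 12 groups and GstE14 in all but A66QC at day 14. GstE14 encodes the glutathione transferase Noppera-bo, which is needed in the larval ring gland for the use of sterols. In Control its arrays read 8.74, 8.98 and 8.95 at day 0, 8.07, 8.02 and 8.07 at day 2, and 8.65, 8.59 and 8.39 at day 14. GstE14 thus fell by 0.83 (SE 0.10, adjusted p = 1.5e-07) while sad rose in the same heads, and it was higher again by 0.49 (adjusted p = 0.000956) at day 14. At day 2 the arrays of the lines read 7.06, 6.88 and 7.13 in Atro, 6.85, 6.91 and 6.92 in A66QC, and 7.43, 7.44 and 7.38 in A75QN. All of them lay below Control. The differences were -1.03 (adjusted p = 1.14e-08), -1.16 (adjusted p = 1.19e-09) and -0.64 (adjusted p = 7.4e-05), with SE 0.10 each.

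At day 14 GstE14 was lower again in the polyQ lines. Atro read 6.90, 6.88 and 6.91, A66QC read 6.19, 6.21 and 6.18, and A75QN read 6.64, 6.45 and 6.63. The differences from Control were -1.65 (adjusted p = 2.27e-13), -2.35 (adjusted p = 8.1e-18) and -1.97 (adjusted p = 6.54e-16). The A66QC arrays were near background, so the size of the differences of GstE14 from that group is uncertain and may be understated. Of all probe sets 5.86% were called in A66QC against Atro at day 14 and 9.29% in A75QN. The differences of GstE14 from Atro were -0.70 in A66QC (adjusted p = 1.44e-05) and -0.32 in A75QN (adjusted p = 0.0395). The latter call was lost in 5 of 13 alternatives, each without 1 array, namely Atro replicate 1, 2 or 3 or A75QN replicate 2 or 3. At day 0 the arrays of GstE14 read 8.46, 7.98 and 8.68 in Atro, 8.20, 8.03 and 8.09 in A66QC, and 8.87, 8.75 and 8.65 in A75QN. GstE14 thus differed from Control already at day 0 in Atro by -0.51 (adjusted p = 0.00132) and in A66QC by -0.78 (adjusted p = 3.41e-06), and was not called in A75QN (-0.13, adjusted p = 0.454). The Atro call was lost when the compared groups were fitted alone.

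Cyp6t3, a P450 gene required for ecdysone production in larvae, was higher in Control at day 2 than at day 0, by much less than sad. It rose by 0.39 (SE 0.063, adjusted p = 1.56e-05), from arrays of 7.11, 7.17 and 7.18 to 7.55, 7.50 and 7.60. The arrays of day 2 read 7.27, 7.19 and 7.33 in Atro, 7.26, 7.35 and 7.38 in A66QC, and 7.19, 7.37 and 7.30 in A75QN, all below Control. At day 0 the differences of Cyp6t3 from Control were -0.12 in Atro (adjusted p = 0.478), -0.14 in A66QC (adjusted p = 0.167) and -0.22 in A75QN (adjusted p = 0.0289). The last call was lost in 7 of 13 alternatives, 4 of them without Control replicate 2 or 3 or A75QN replicate 1 or 3. The call was gained in A66QC without A66QC replicate 1. At day 2 the differences were -0.28 in Atro (adjusted p = 0.00593), -0.22 in A66QC (adjusted p = 0.0493) and -0.26 in A75QN (adjusted p = 0.00984). The A66QC call of Cyp6t3 was lost in 7 of 13 alternatives, 4 of them without 1 array (Control replicate 1 or 3, or A66QC replicate 1 or 2), and the A75QN call in 2 (without Control replicate 3 or A75QN replicate 1). At day 14 no line was called against Control for Cyp6t3, with differences of -0.21 (adjusted p = 0.0511), -0.036 (adjusted p = 0.699) and -0.13 (adjusted p = 0.163). Atro gained the call in 5 of 13 alternatives, among them those without Control replicate 3 and without Atro replicate 2. In all 3 lines the day 14 mean of Cyp6t3 was above that of day 2, where sad had fallen in both polyQ lines.

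Over all 7 lists of ecdysone genes, 71 genes were measured apart from sad. Between day 0 and day 2 in Control, 12 of them were called higher and 10 lower, or 31.0%. This stands beside 22.2% of all probe sets called in that comparison, of which 10.6% higher and 11.5% lower. The median difference of the 71 genes was 0.006, against 0.009 for all probe sets. In the lines against Control at day 2, 2 of 71 were called in Atro, 4 in A66QC and 3 in A75QN. The shares of 2.82%, 5.63% and 4.23% stand beside 3.63%, 3.44% and 4.68% of all probe sets. The count in A66QC ranged from 1 to 5 when 1 array was left out (1 without Control replicate 1), beside 2.33% to 4.67% of all probe sets. It was 14 without the arrays of outlying spread, where 15.7% of all probe sets were called. With array weights it was 28, where 29.1% of all probe sets were called.

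Among genes that bring sterol to the cell in Control, Npc2g rose most, by 0.91 (SE 0.078, adjusted p = 1.4e-10). The Npc2 genes encode sterol-binding proteins, and Npc2b (0.36, adjusted p = 0.00176), Npc2f (0.22, adjusted p = 0.0224) and Npc2a (0.22, adjusted p = 0.044) also rose. Npc1a, which moves cholesterol out of endosomes, fell by 0.44 (adjusted p = 0.000568). The call of Npc2f was lost in 5 of 12 alternatives, 4 of them without Control day 0 replicate 1 or 3 or Control day 2 replicate 1 or 3. Npc2a lies outside the rule for named genes and was chosen after its values were seen. Of the 10 sterol genes measured, the other 5 were not called in Control, where 22.2% of all probe sets were called. Limma called none of the 10 in any line against Control at day 2. There 3, 1 and 2 of them had an unadjusted p under 0.05 in Atro, A66QC and A75QN. The shares of all probe sets called were 3.63%, 3.44% and 4.68% in those comparisons, so a list of 10 may hold no call.

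Of the 2 electron donor genes measured, the ferredoxin gene Fdx2 fell in Control by 0.24 (SE 0.062, adjusted p = 0.00392). Of 11 regulators of ecdysteroid synthesis, the zinc finger gene woc rose by 0.37 (adjusted p = 0.00302) and kni, a nuclear receptor gene, fell by 0.24 (adjusted p = 0.0108). The kni call was lost without Control day 2 replicate 2. Among the 4 genes of ecdysteroid inactivation and transport, Cyp18a1, the P450 that degrades the active hormone, fell by 0.45 (SE 0.095, adjusted p = 0.000525). Oatp74D, which carries ecdysone into cells, fell by 0.37 (SE 0.098, adjusted p = 0.00495). The Oatp74D call was lost without Control day 0 replicate 3 and without Control day 2 replicate 2. Between day 0 and day 2 in Control, 22.2% of all probe sets were called. Limma called no gene of these 3 lists in a line against Control at day 2. There 3 of their 17 genes had an unadjusted p under 0.05 in Atro, 2 in A66QC and 2 in A75QN. The shares of all probe sets called there were 3.63%, 3.44% and 4.68%, so a list of 17 may hold no call.

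The receptor genes were not called in Control. EcR was at -0.054 (SE 0.087, adjusted p = 0.76) and usp at 0.033 (adjusted p = 0.818) between day 0 and day 2 in Control. Of the 7 genes of the receptor and its partners, DopEcR, a membrane receptor for dopamine and ecdysone, fell by 0.60 (SE 0.11, adjusted p = 0.000155). The coactivator gene tai fell by 0.15 (adjusted p = 0.0392) and rig, which encodes a WD-repeat partner of EcR, rose by 0.19 (adjusted p = 0.0177). The share of all probe sets called in that Control comparison was 22.2%. At day 2 tai differed in A66QC from Control by -0.19 (adjusted p = 0.0408), the one call of the list in any line on that day. Among all probe sets 3.63% (Atro), 3.44% (A66QC) and 4.68% (A75QN) were called there. Leaving out 1 array ended the calls of tai in Control (Control day 0 replicate 2, or day 2 replicate 2 or 3) and in A66QC (Control replicate 1 or 3, A66QC replicate 1 or 2), and that of rig (Control day 0 replicate 1, day 2 replicate 3). At day 0 tai was already lower in A66QC (-0.33, adjusted p = 0.000109, lost in no alternative). In A75QN it was at -0.18 (adjusted p = 0.0365, lost in 6 of 13). DopEcR was lower at day 0 in A66QC (-0.55, adjusted p = 0.0015) and A75QN (-0.48, adjusted p = 0.00839). It was lower in A66QC at day 14 too (-0.43, adjusted p = 0.00876, lost in 4). At day 14 EcR was lower in A66QC (-0.25, adjusted p = 0.0475), a call lost in 8 of 13. There 17.9% of all probe sets were called.

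Of 31 genes named for their response to ecdysone in other stages or tissues, 4 were higher and 2 lower in Control at day 2, or 19.4%, which is near the 22.2% of all probe sets. ImpL2, a secreted binding protein of insulin-like peptides, rose by 0.86 (SE 0.097, adjusted p = 3.88e-08), and its arrays went from 8.41, 8.89 and 8.62 to 9.59, 9.31 and 9.61. The cuticle gene Edg91 rose by 0.34 (adjusted p = 0.000595). ImpE1 fell by 0.20 (adjusted p = 0.00761). Kr-h1 (0.41, adjusted p = 0.0162), Cth (0.20, adjusted p = 0.0375) and Hr39 (-0.29, adjusted p = 0.0156) complete the count and were named after their values were seen. Against Control at day 2, the nuclear receptor gene Hr3 differed in A66QC by -0.33 (SE 0.074, adjusted p = 0.00666), a call lost without Control replicate 1 or A66QC replicate 1. Hr3 was also called lower in A66QC at day 0 (-0.43, adjusted p = 0.00023) and at day 14 (-0.49, adjusted p = 1.59e-05), and neither call was lost in any of 13 alternatives. ImpL1 was higher in A75QN by 0.22 (adjusted p = 0.0119) and was likewise named after its value was seen. In Atro none of the 31 was called by limma, and 2 had an unadjusted p under 0.05. Among all probe sets 3.63%, 3.44% and 4.68% were called in Atro, A66QC and A75QN at day 2.

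Among mitochondrial P450 genes outside the chain 8 were measured, and 7 were called in Control between day 0 and day 2, 3 higher and 4 lower, where 22.2% of all probe sets were called. Cyp12c1 rose by 0.69 (SE 0.070, adjusted p = 5.64e-09) and Cyp301a1 by 0.30 (adjusted p = 3.11e-05). Cyp12a4 fell by 0.48 (adjusted p = 0.000634), with overlapping arrays, and Cyp12a5 by 0.41 (adjusted p = 1.73e-05). At day 2 Cyp301a1 differed from Control by -0.24 in Atro (adjusted p = 0.00314), and Cyp12c1 by -0.30 in A75QN (adjusted p = 0.00715). Leaving out Control replicate 3 or A75QN replicate 3 ended the latter call, and fitting the compared groups alone ended that of Cyp301a1. At day 14 Cyp301a1 was lower than Control in Atro (-0.22, adjusted p = 0.00576) and A66QC (-0.21, adjusted p = 0.00422). Leaving out Control replicate 2 ended both. Cyp12c1 was then lower in A75QN (-0.38, adjusted p = 0.000299) but higher in Atro (0.26, adjusted p = 0.0246, lost in 4 of 13). Of all probe sets 4.18% (Atro), 17.9% (A66QC) and 15.6% (A75QN) were called at day 14. The change of Cyp12c1 between days 0 and 2 also differed between each line and Control in a test of that difference. The differences were -0.55, -0.61 and -0.49 in Atro, A66QC and A75QN, where 1.35%, 1.32% and 2.04% of all probe sets passed. That test includes the Control rise through which Cyp12c1 was named, so it is not independent of the choice. The Control rise of sad, 3.53, lay above the 0.69 of Cyp12c1, the largest rise on this list.

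The genes on either side of sad on chromosome arm 3R moved by less than sad. CG6962 overlaps sad in the reference annotation, and it differed by 0.072 (SE 0.058, adjusted p = 0.467) between day 0 and day 2 in Control. Kyat, which encodes a kynurenine aminotransferase, differed by 0.073 (adjusted p = 0.566). CG6959 fell by 0.38 (SE 0.092, adjusted p = 0.00263). CG31368 rose by 0.27 (SE 0.059, adjusted p = 0.000877) in Control and by 0.27, 0.21 and 0.26 in Atro, A66QC and A75QN. None of CG6959, Kyat, CG6962 and CG31368 was called in a line against Control at day 2 in the limma fit, with adjusted p from 0.106 to 0.966. The shares of all probe sets called were 3.63% in Atro, 3.44% in A66QC and 4.68% in A75QN. At day 14 CG6959 alone was called, with a difference of -0.40 in A66QC (adjusted p = 0.00242).

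The genes most like sad were ranked by Pearson's r between their 12 group means and those of sad, among the 761 other genes whose means spanned at least 1. The points share arrays and groups, so r is given as a description, with no p. CG15861 came first with r of 0.961, then Ser7, a serine protease gene, with 0.952. Skp2, the F-box subunit of a ubiquitin ligase, followed with 0.905, and Sp212, another serine protease gene, and BomT3, a Bomanin of the immune response, each had 0.902. Osi6 of the Osiris family (0.883), the tetraspanin gene Tsp42En (0.882) and p47 (0.880) completed the first 8. The gene after these had 0.871, so the list has no gap at its end. Of the 8, 7 were also among the first 8 over the 36 single arrays and after quantile normalization, and 4 with Spearman's rho.

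CG15861 had the highest r and spanned a smaller range than sad. In Control its arrays read 6.20, 6.13 and 6.13 at day 0, 7.31, 7.18 and 7.26 at day 2, and 7.64, 7.84 and 7.54 at day 14. At day 14 CG15861 read 6.25, 6.18 and 6.09 in A66QC and 6.16, 6.15 and 6.33 in A75QN, near background, while Atro read 6.64, 6.74 and 6.73. At day 2 CG15861 read 6.96, 6.79 and 6.85 in Atro, 6.68, 6.79 and 6.92 in A66QC, and 6.65, 6.66 and 6.87 in A75QN, all below Control. Between day 2 and day 14 its means in Control and Atro moved in the opposite direction to those of sad. In Atro its mean went from 6.87 to 6.70, where sad had gained 0.38, and in Control from 7.25 to 7.68, where sad was at -0.15. Ser7 is well above background throughout. Its means were 9.34, 10.8 and 10.5 in Control at days 0, 2 and 14, and 9.53, 10.2 and 9.50 in A66QC.

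Osi6 resembled sad in its low polyQ levels at day 14, but not in Atro at day 2. At day 2 its mean was 9.78 in Control and 9.70 in Atro, whose arrays overlapped, where sad had differed by -2.28. The polyQ means of Osi6 at day 2 were 9.20 (A66QC) and 8.86 (A75QN), below that of Control as for sad. From day 2 to day 14 its mean went up to 10.80 in Control and down to 8.875 in Atro, each opposite to sad. At day 14 Osi6 differed from Control by -1.93 in Atro, -4.62 in A66QC and -4.45 in A75QN (SE 0.14 each). The polyQ means of Osi6 at day 14, 6.19 (A66QC) and 6.36 (A75QN), were near background, so the size of those differences is uncertain too. They lay below the day 0 means of 7.07 and 7.25, unlike those of sad. BomT3 had means of 10.13, 10.18 and 10.00 in A66QC on days 0, 2 and 14, against 10.2, 11.1 and 11.5 in Control.

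**Figure D4:**
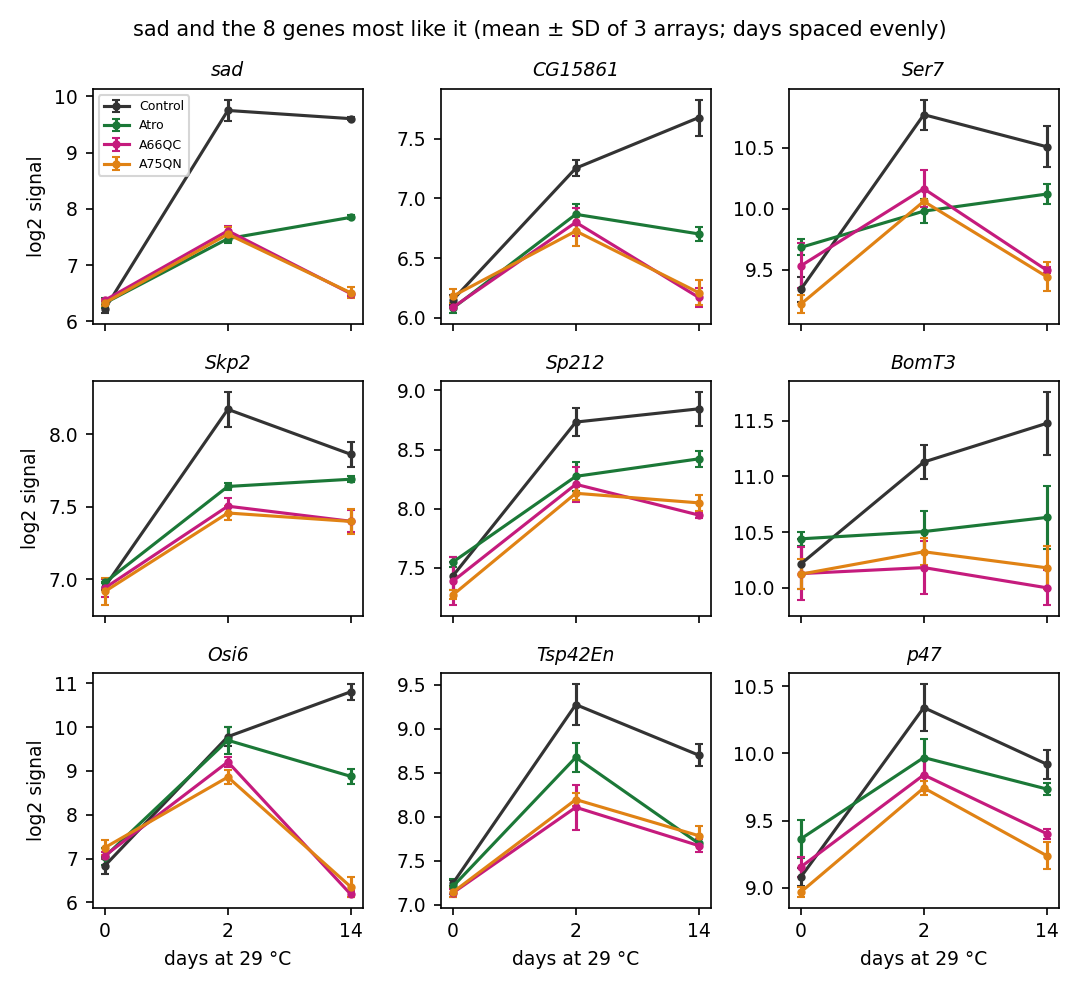
Group means with SD (log2 signal, n = 3) over days 0, 2 and 14 at 29 °C (evenly spaced) in the 4 genotypes for sad and the 8 genes most like it, each panel with its own vertical axis. CG15861 (r of 0.961) and Ser7 (0.952) have Control highest at days 2 and 14, while Osi6 (0.883) has Control and Atro together at day 2.

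The rise in Control between days 0 and 2 and the deficit of A66QC at day 14 rest on separate arrays. The choice of sad drew on both, so neither is independent support for the other. Among all probe sets sad ranked 3 from the top in the rise and 4 from the bottom in the deficit. For A75QN at day 14 it ranked 5 from the bottom, and for Atro 9. Of all probe sets 17.9% were called in A66QC against Control at day 14, and 15.6% in A75QN. In Atro the share was 4.18%.

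**Figure D5:**
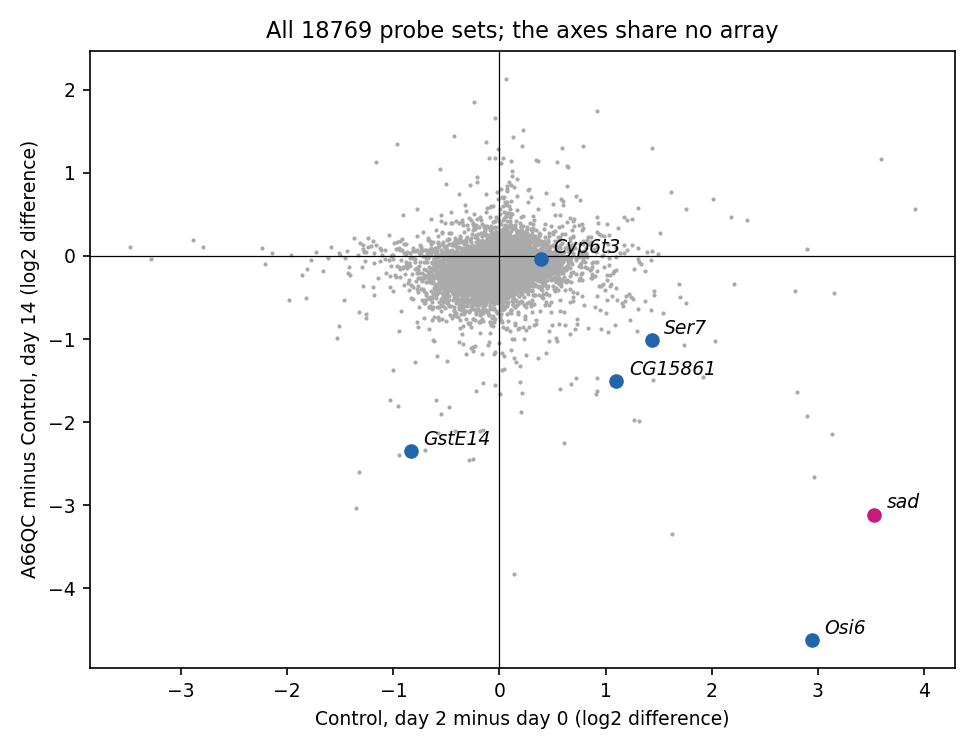
Difference between day 2 and day 0 in Control (horizontal axis, log2) against the difference between A66QC and Control at day 14 (vertical axis, log2) for 18769 probe sets (grey), with 6 genes marked. The axes share no array, but the choice of sad drew on both. The gene sad lies at 3.53 and -3.11, Osi6 at 2.94 and -4.62, and GstE14 at -0.83 and -2.35. The A66QC levels of Osi6 and GstE14 at day 14 were near background, which leaves the size of their vertical values uncertain.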

How the data were processed

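The authors deposited 1 log2 value per probe set and array, per the labels. The submitters' processing notes name R 2.11.0. The sources used here do not state how the arrays were background-corrected, summarized or normalized. Arrays have no read depth, and their number (3 a group) limits the precision. Of 18952 probe sets, 183 controls were set aside. Of the 18769 tested, 13646 carried 1 platform symbol, 402 several and 4721 none, and a gene's brightest probe set stood for it. Neighbours and current symbols came from the RefSeq gene table of the Release 6 plus ISO1 MT assembly. The files name no build, so no coordinates are given. The table was matched by symbol. Some genes are not reported here.

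All 36 arrays entered one limma 3.58.1 model in R 4.3.3 with a mean for each of 12 groups (24 residual and 6.49 prior degrees of freedom). P-values were moderated and Benjamini-Hochberg adjusted over the probe sets of a contrast, with a threshold of 0.05. The same script was tested on simulated data. The gene, lists and alternatives were chosen with earlier results of these data known. Named were sad, in each list the called members with the lowest adjusted p (4 at most), the other synthesis enzymes, EcR, usp, the 8 genes most like sad, 2 neighbours with a probe set on each side, and Gug. For genes with several probe sets (Cyp18a1 and shd 2, ImpE1 4) the brightest was used. A summed marker level is the log2 of the sum of linear signals. No sequences were used.

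Replicates that share a number deviated together in no steady way (r from -0.57 to 0.68 in 4 comparisons), so the numbers were not used as pairs. Python 3.11.15 and matplotlib 3.10.9 drew the figures.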

Additional observations from a re-analysis of the deposited data

Results flagged for a closer look

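For 5 genes the change from day 0 to day 2 differed between a transgenic line and Control by the limma test of the difference itself. For that test 1.35% of probe sets passed in Atro, 1.32% in A66QC and 2.04% in A75QN. Each of the 5 was named through its call between day 0 and day 2 in Control, and that Control change is part of the test. The test is therefore not independent of the choice of genes, and its p-values may be too small. Cyp12c1, a mitochondrial P450 gene like sad, rose by 0.69 in Control, and its changes in the lines differed from that by -0.55 in Atro (SE 0.099, adjusted p = 0.00162), -0.61 in A66QC (adjusted p = 0.000533) and -0.49 in A75QN (adjusted p = 0.00556). Its level was already higher at day 0 in Atro (7.78) and A66QC (7.79) than in Control (7.24), and the day 2 means were 7.93 in Control, 7.92 in Atro and 7.87 in A66QC. In A75QN it went from 7.43 to 7.63. Cyp12c1 was thus well above background at day 0, where sad was near it in every genotype.

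Cyp18a1, which degrades the active hormone, fell in Control and differed in Atro by 0.55 (SE 0.13, adjusted p = 0.0287). DopEcR differed in A75QN by 0.75 (SE 0.16, adjusted p = 0.00876), with a change of 0.15 there against -0.60 in Control. ImpE1 differed in A66QC by -0.32 (SE 0.078, adjusted p = 0.0328), where it fell by 0.52. Cyp12a5 differed in A75QN by 0.42 (SE 0.095, adjusted p = 0.0144), with a change of 0.003 there. Each of these genes differed from Control in its line already at day 0 in the limma fit, and was not called there at day 2. The day 0 differences were -0.34 for Cyp18a1 (adjusted p = 0.0333), -0.48 for DopEcR (adjusted p = 0.00839), 0.28 for ImpE1 (adjusted p = 0.00111) and -0.31 for Cyp12a5 (adjusted p = 0.00348). Those of day 2 were 0.21, 0.27, -0.041 and 0.11. The Cyp18a1 call of day 0 was lost in 5 of 13 alternatives, among them those without Control replicate 2 or 3 or Atro replicate 2 or 3. That of DopEcR was lost in 1, without A75QN replicate 2. Other lines also differed from Control at day 0 in the limma fit, and less at day 2. Cyp18a1 was at -0.61 in A75QN (adjusted p = 6.51e-05) and -0.35 in A66QC (adjusted p = 0.0153), then -0.12 and 0.013. DopEcR in A66QC was at -0.55 (adjusted p = 0.0015), then -0.12. ImpE1 in Atro was at 0.26 (adjusted p = 0.00236), then -0.021. In A75QN ImpE1 was at -0.22 (adjusted p = 0.0125), then -0.081. Leaving out Control replicate 2 or 3 ended the Cyp18a1 call in A66QC and the ImpE1 call in A75QN. Leaving out replicate 2 of the line itself did so too. The A75QN changes include its day 2 arrays with their higher spike-in signal, whose part was not tested. At day 0 the spike-in probe sets of A75QN averaged 10.4.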

How the results depend on the processing

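Of 338 alternative values of the sad differences, 6 had the other sign, none of them larger than 0.042 and all of differences that were at most 0.014 in size, and 15 moved by more than the SD of sad between replicates, taken as the root mean square over the groups of that comparison. Without the arrays of outlying spread the Control rise to day 2 was 3.68. With quantile normalization Control from day 2 to 14 was -0.30 and Atro 0.31, and at day 14 the differences from Control were -1.69 (Atro), -2.95 (A66QC) and -2.96 (A75QN), and A66QC minus Atro was -1.25. With cyclic loess normalization the A66QC rise to day 2 was 1.17, the Atro change from day 2 to 14 was 0.31, A66QC and A75QN minus Control at day 0 were 0.24 and 0.19, minus Atro at day 0 0.15 and 0.097, A66QC minus Control at day 14 -3.01, and A66QC minus Atro at day 14 -1.28. The cause was not tested.

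Counts of calls moved more. The share called among brighter probe sets alone was 44.0% for the Control rise, 7.82% for Atro, 6.97% for A66QC and 10.0% for A75QN at day 2. At day 2 quantile normalization gave 8.46%, 7.62% and 11.8%, cyclic loess 8.25%, 7.58% and 11.3%, and array weights 10.0%, 29.1% and 16.6% for the same lines. Without the arrays of outlying spread the shares were 15.7% in A66QC and 8.64% in A75QN, and with the compared groups alone 2.13% and 7.32%. Of the 71 ecdysone genes, quantile normalization called 5 in Atro and 10 in A75QN, loess 10 in A75QN, array weights 7, 28 and 11 in Atro, A66QC and A75QN, the fit without outlying arrays 14 in A66QC and 7 in A75QN, and the compared groups alone 2 and 9. Leaving out 1 array gave 1 to 5 in A66QC, 1 to 4 in A75QN (1 without A75QN replicate 1), 17 to 20 in the Control rise, and shares of 2.84% to 4.96% in A75QN (2.84% without Control replicate 3). With the replicate block the counts were 22, 3, 4 and 3, and the sad differences were unchanged to 3 decimals, 3.528 for the Control rise. The weights (0.27 to 4.70) were estimated gene by gene, since the default did not converge. Spearman's rho kept 4 of the 8 genes most like sad. Signal near background limits the size of the differences of sad at day 0, of CG15861 and Osi6 in the polyQ lines at day 14, and of GstE14 in A66QC at day 14. Signal just above background limits that of sad in the polyQ lines at day 14.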
